A study of Mus musculus with 4 samples.

Results

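The 38 Hox genes examined here lie in the 4 Hox clusters and are defined by their names and place in a cluster, and no measured value enters that definition. They are 38 of the 22208 protein-coding gene symbols of the annotation. Binding of RYBP was measured by chromatin immunoprecipitation and sequencing in FLK1+ mesoderm, sorted from embryoid bodies of wild-type mouse ES cells (strain C57Bl/6 X Sv129) at day 3.75. The study names its wild-type ES line as J1 and gives a cross of these strains for its mice. The text of the series adds that the sorted cells lacked PDGFRa, whereas the study's methods name FLK1 as the only marker for isolating them. Embryoid bodies are aggregates in which ES cells differentiate. The series holds 4 samples, namely 2 RYBP samples made with an antibody against DEDAF, which is another name of RYBP, and 2 input samples. The labels and methods name no knockout, transgene or drug treatment for these 4 samples. Input files were not analysed here, and the peak lists carry no read depth. No expression was measured in these samples, so the sorted cell type could not be checked against marker genes. With 1 group and 2 replicates there is no test of a difference, and results are given for both replicates or for the authors' merged list, which joins the calls of both and so covers at least as much as either, apart from single bases at the edges of peaks. The labels do not say whether the replicates came from separate cultures, so their spread may be technical.

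Hox genes encode homeodomain transcription factors that give cells their position along the body axis. Within a cluster, genes at the 3′ end act earlier and more towards the head than genes at the 5′ end, and genes with the same number in different clusters are paralogues. In ES cells and early embryos the clusters are known as broad targets of Polycomb complexes. RYBP is a subunit of variant Polycomb repressive complexes that ubiquitinate a histone, and such complexes are often found at sequence rich in CpG dinucleotides.

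To show the sequence that lay under the calls, the 200 bases before the annotated start of 4 genes are printed from the mm9 genome, on the strand of the gene, with CpG in capitals. None of these stretches overlapped an annotated exon. Hoxa13 (chr6:52210875-52211074, minus strand, 33 CpG) had the most CpG of the 38 genes and lay inside a peak in both replicates. Hoxd3 (chr2:74549786-74549985, plus strand, 12 CpG) lay in the peak with the highest fold enrichment of all Hox loci in replicate 2. Hoxd11 (chr2:74517249-74517448, plus strand, 3 CpG) was inside a peak in replicate 1 and in a gap between peaks in replicate 2. Hoxa2 (chr6:52115413-52115612, minus strand, 2 CpG) was inside a peak in both replicates although it had few CpG. The last stretch is the middle of the longest uncovered interval in any cluster, between Hoxb13 and Hoxb9 (chr11:96082238-96082437, plus strand, 1 CpG).
Hoxa13: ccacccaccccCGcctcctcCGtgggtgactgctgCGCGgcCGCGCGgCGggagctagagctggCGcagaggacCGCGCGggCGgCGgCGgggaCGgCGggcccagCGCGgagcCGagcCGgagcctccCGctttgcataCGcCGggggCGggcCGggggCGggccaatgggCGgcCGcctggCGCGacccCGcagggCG
Hoxd3: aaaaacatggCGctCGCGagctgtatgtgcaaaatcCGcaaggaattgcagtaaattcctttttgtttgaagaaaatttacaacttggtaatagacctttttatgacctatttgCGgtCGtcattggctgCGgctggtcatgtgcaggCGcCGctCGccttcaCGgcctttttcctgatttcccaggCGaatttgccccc
Hoxd11: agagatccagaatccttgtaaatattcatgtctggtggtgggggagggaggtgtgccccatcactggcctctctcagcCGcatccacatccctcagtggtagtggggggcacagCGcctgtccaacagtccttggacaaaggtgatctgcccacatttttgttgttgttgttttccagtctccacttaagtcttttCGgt
Hoxa2: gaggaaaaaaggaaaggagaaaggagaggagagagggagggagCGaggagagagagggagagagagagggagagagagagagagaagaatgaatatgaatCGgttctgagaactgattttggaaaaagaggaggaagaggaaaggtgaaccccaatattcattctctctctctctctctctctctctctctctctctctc
Hoxb gap: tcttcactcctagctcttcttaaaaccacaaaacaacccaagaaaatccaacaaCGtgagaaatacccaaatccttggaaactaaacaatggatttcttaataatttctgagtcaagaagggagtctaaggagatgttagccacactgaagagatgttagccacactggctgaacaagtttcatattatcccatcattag

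A CpG, which reads the same on both strands, was present in such a window in 90.4% of 22203 genes and in all 38 Hox genes. At least 10 were present in 42.7% of all genes and in 18 Hox genes. The number of CpG ran from 2 to 33 over the Hox genes, with a median of 9, and had a median of 7 over all genes.

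RYBP was present over every one of the 38 Hox loci, a locus being the gene body with 5 kb upstream. A region of the authors' merged list overlapped all 38 loci, against 57.1% of all protein-coding loci. A peak of each replicate overlapped all 38, against 40.5%. Hox loci differed from most occupied loci in how much of the locus was covered. The covered share had a median of 92.9% over the Hox loci, and was 88.0% in replicate 1 and 75.5% in replicate 2. Over all genes the median was 0.786%, and over the genes with a region it was 3.58%. At least 50% of the locus was covered at 37 Hox genes, against 1.59% of all genes, and at least 90% was covered at 23 Hox genes, out of 55 such genes in all. Hox loci are short, with a median of 9082.5 bp against 20526.5 bp. Among the 14306 genes with a locus between 6853 and 54981 bp, the range of the Hox loci, the median covered share was 1.82%, and 2.13% of them were covered to at least 50%.

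**Figure D1:**
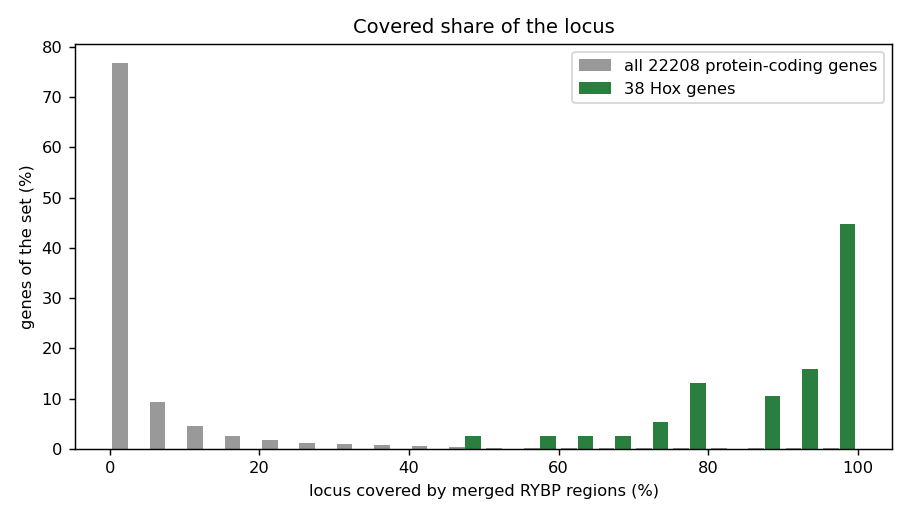
Share of the locus (gene body and 5 kb upstream) covered by merged RYBP regions, in bins of 5 percentage points, as a percentage of all 22208 protein-coding genes (grey) and of the 38 Hox genes (green). Most genes lie in the lowest bin, whereas 37 Hox genes lie at 50% or above.

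Neighbouring Hox loci overlap, so the genes are not independent of each other. Counted once, the 38 loci held 390546 bp, of which 340558 bp, or 87.2%, lay in merged regions. These bases were 1.34% of all bases in merged regions. There were 53 merged regions at the loci, with a median width of 4931 bp against 766 bp for all 22409 merged regions. In the separate lists, peaks at the Hox loci were 3461 bp wide at the median in replicate 1, against 766 bp for the whole list, and 3394.5 bp in replicate 2, against 764 bp.

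Each cluster was then taken from its outermost gene to its outermost gene. The Hoxa span was covered most, at 88.3%, followed by Hoxd at 81.2%, Hoxc at 79.8% and Hoxb at 64.4%. In replicate 1 the shares were 83.7% for Hoxa, 72.9% for Hoxd, 66.9% for Hoxc and 56.4% for Hoxb. In replicate 2 they were 77.1% for Hoxa, 61.0% for Hoxd, 66.0% for Hoxc and 51.7% for Hoxb. Hoxa thus came highest and Hoxb lowest in each replicate, while the order of Hoxc and Hoxd differed between replicates. Sequence called in both replicates made up 72.4% of Hoxa, 43.7% of Hoxb, 53.1% of Hoxc and 52.7% of Hoxd. The Jaccard index of the replicates, which is shared base pairs over all called base pairs, was 0.820 in Hoxa, 0.679 in Hoxb, 0.665 in Hoxc and 0.648 in Hoxd, against 0.426 over all chromosomes. The index rises with the share covered, even for calls placed at random. Values of densely covered spans and of the sparsely covered genome therefore cannot be compared as replicate agreement.

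**Figure D2:**
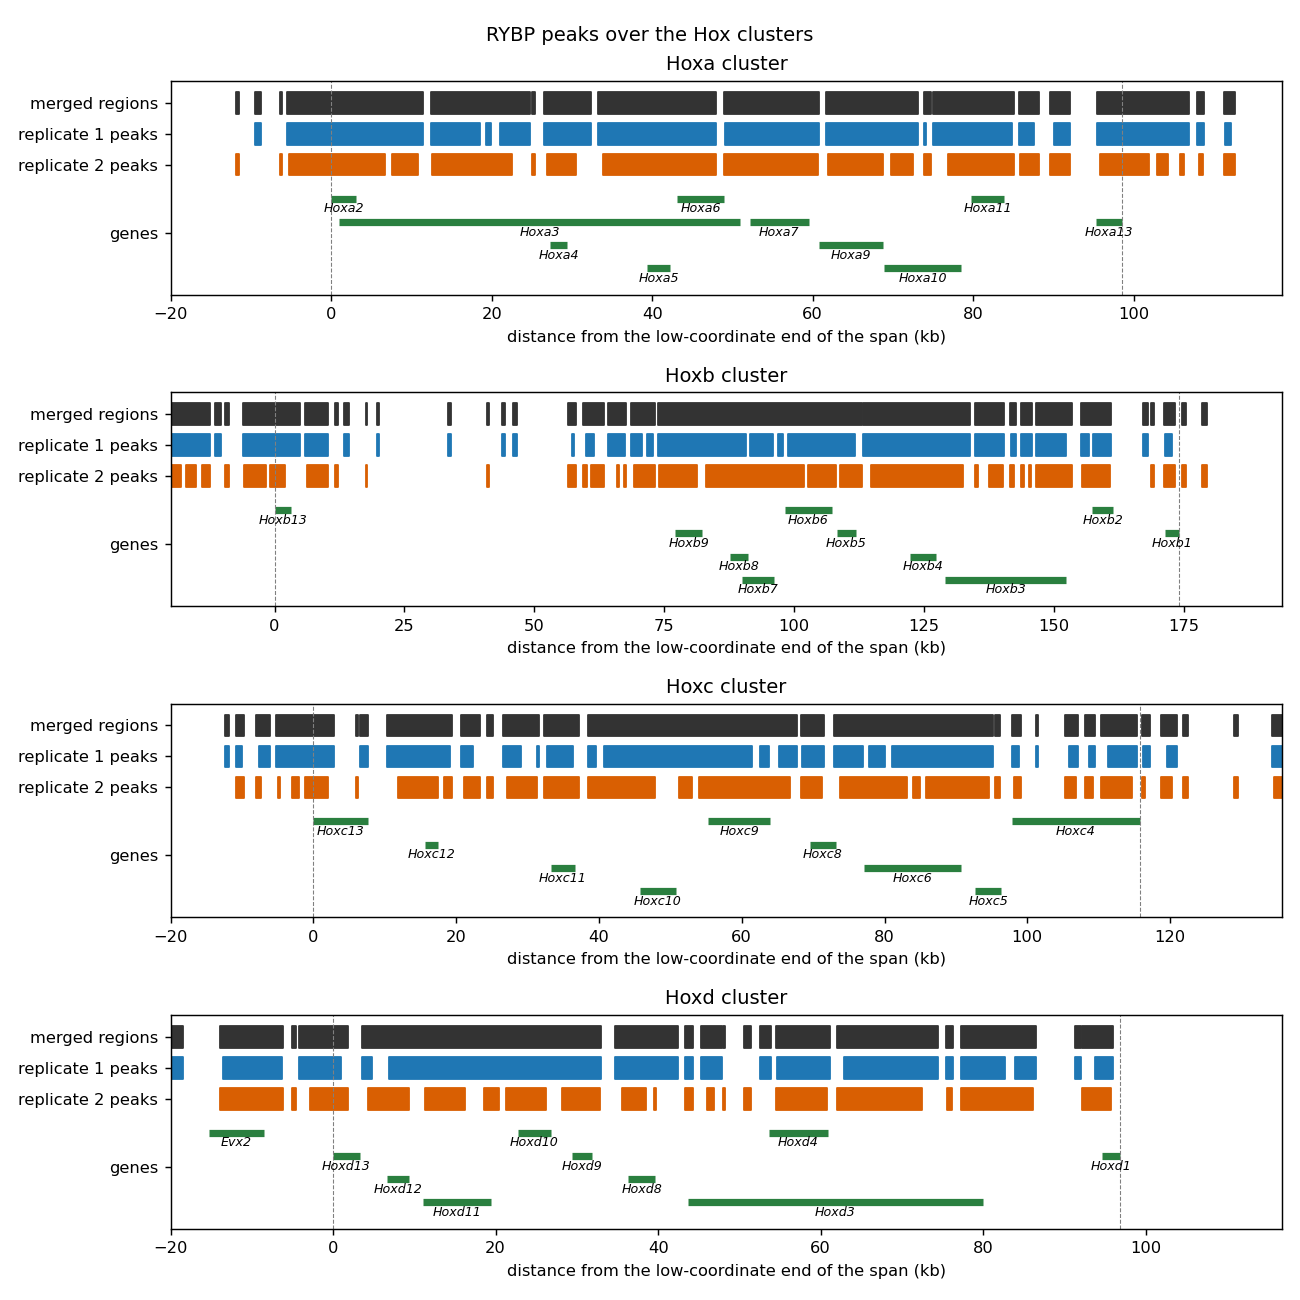
Merged RYBP regions (black), replicate 1 peaks (blue), replicate 2 peaks (orange) and genes (green) over the 4 Hox clusters, drawn to scale as distance in kb from the end of the span with the lowest coordinate. Dashed lines mark the ends of the spans, and the stretch between Hoxb13 and Hoxb9 holds the longest intervals without a region.

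The Hoxa cluster on chromosome 6 runs from Hoxa2 to Hoxa13 (52112350 to 52210874, minus strand). RYBP covered it almost end to end, in 12 merged regions separated by 11 gaps with a median of 886 bp. The widest region was 16925 bp (52106878 to 52123802) and held Hoxa2, which patterns the second branchial arch, and the start codon of Hoxa3, which acts in the pharyngeal pouches. It was called as 1 peak in replicate 1, with a fold enrichment of 3.69, and as 2 peaks in replicate 2, of which the stronger had 4.46. Hoxa5, known for its part in lung development, was covered in full in both replicates. Its region (52145623 to 52160353) had a fold enrichment of 3.81 and 4.63. The strongest Hoxa peaks lay over the start of Hoxa4, at 4.46 in replicate 1 and 5.30 in replicate 2. Yet the Hoxa4 locus was covered to 87.5% in replicate 1 and 50.9% in replicate 2, the widest difference between replicates in this cluster.

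Hoxa6 was covered to 89.7% in replicate 1 and 91.6% in replicate 2, and Hoxa7 to 93.1% and 90.2%. The 5′ genes of Hoxa were covered as well. Hoxa9, a regulator of haematopoietic progenitors, was covered to 88.3% in replicate 1 and 73.8% in replicate 2. Hoxa10, which acts in the uterus and hind limb, was covered to 88.7% and 69.8%. Hoxa11 had the lowest merged share of the cluster, 85.8%, with 75.3% and 84.3% in the replicates. Between Hoxa11 and Hoxa13 the intergenic interval of 11479 bp was covered to 54.6% (41.7% in replicate 1 and 53.2% in replicate 2), and the longest gap of the cluster, 3375 bp, reached into Hoxa13. Hoxa13 itself, which is needed for digits and the genital tract, was covered to 98.5% in replicate 1 and 82.4% in replicate 2.

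The Hoxb cluster on chromosome 11 runs from Hoxb13 to Hoxb1 (96055630 to 96229570, plus strand) and was the most uneven. Its genes from Hoxb9 to Hoxb4 lay under nearly continuous merged regions, while the interval between Hoxb13 and Hoxb9 did not. That interval of 74009 bp was covered to 37.1%, with 28.8% in replicate 1 and 24.2% in replicate 2. It held the longest gaps of any cluster, 13171 bp, 9866 bp and 7046 bp. Taken from Hoxb9 to Hoxb1, the cluster was covered to 84.1% in place of 64.4%, a span chosen after the map had been seen.

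The widest merged region of the whole data set, 39279 bp (96129407 to 96168685), held Hoxb9, Hoxb8, Hoxb7, Hoxb6 and Hoxb5. Neither replicate had a peak of that width. The region joined 4 peaks of each replicate, and the widest peaks in the cluster reached 20675 bp (replicate 1) and 18727 bp (replicate 2). Hoxb8, which marks early myeloid progenitors, was covered to 96.7% in replicate 1 and 94.3% in replicate 2. Hoxb6 was covered to 85.8% and 93.9%, and Hoxb5 to 99.5% and 90.1%. Hoxb7 was covered to 91.3% and 100%, and Hoxb9 to 90.4% and 82.0%. Next to it, a region of 20675 bp (96168795 to 96189469) covered all of Hoxb4, known for expanding haematopoietic stem cells, in both replicates. A gap of 109 bp separated the pair of regions.

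Towards the 3′ end of Hoxb the calls thinned. Hoxb3 was covered to 84.9% in replicate 1 and 67.7% in replicate 2, and Hoxb2 to 52.2% and 71.5%. The interval of 10062 bp between Hoxb2 and Hoxb1 was covered to 17.2% by the merged list, but to 9.62% in replicate 1 and 8.93% in replicate 2. Hoxb1, which specifies the fourth rhombomere of the hindbrain, had the lowest share of all 38 loci, 46.9%, with 30.4% in replicate 1 and 35.8% in replicate 2. Its start and 71.4% of its body lay in a region of 2119 bp (96226735 to 96228853) with a fold enrichment of 3.55 and 4.05. At the other end Hoxb13, which acts in the tail and prostate, was covered in full in replicate 1 and to 76.4% in replicate 2.

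The Hoxc cluster on chromosome 15 runs from Hoxc13 to Hoxc4 (102751534 to 102867274, plus strand). It held 17 merged regions and 17 gaps, the longest of 3729 bp. The widest regions lay in its middle. A region of 29243 bp (102789994 to 102819236) held Hoxc10 and Hoxc9, both of which specify motor neurons of the spinal cord, and a region of 22210 bp (102824509 to 102846718) held Hoxc6 and most of Hoxc5. These also were wider than any peak of a replicate, which reached 20777 bp in replicate 1 and 12718 bp in replicate 2. Hoxc9 was covered to 90.2% and 87.2% in the replicates, Hoxc10 to 100% and 71.1%, and Hoxc6 to 85.3% and 82.3%. Hoxc5 was covered to 86.7% and 89.5%.

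Lower shares were found at both ends of Hoxc and at Hoxc8. Hoxc13, which acts in hair follicles, was covered to 70.3% in replicate 1 and 37.6% in replicate 2. Its gene body was the least covered of all 38, at 54.5%. At the 3′ end Hoxc4 was covered to 43.1% and 46.7% in 7 separate regions, and the interval of 1506 bp before it was covered to 1.06%, all of it from replicate 1. Hoxc8, a regulator of the thoracic skeleton, was covered to 65.8% and 59.0%. Hoxc11, which acts in the hind limb and lumbar cord, was covered to 57.7% in replicate 1 and 87.9% in replicate 2. Hoxc12 was covered in full in replicate 1 and to 81.9% in replicate 2.

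The Hoxd cluster on chromosome 2 runs from Hoxd13 to Hoxd1 (74506367 to 74603200, plus strand). Its 5′ genes Hoxd12, Hoxd11, Hoxd10 and Hoxd9, known from limb development, shared a region of 29364 bp (74509968 to 74539331). Replicate 1 had 2 peaks there, the wider of 26081 bp, and replicate 2 had 5. The widest peak of replicate 2 anywhere in the cluster was 10395 bp. Hoxd9 was covered in full in replicate 1 and to 73.1% in replicate 2, and Hoxd10 to 100% and 74.6%. Hoxd11 was covered to 94.0% and 67.6%. Hoxd12 went the other way, with 47.3% in replicate 1 and 67.5% in replicate 2.

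Hoxd13, a regulator of digit formation, was covered to 62.2% and 61.3% in the replicates. Hoxd8 was covered to 78.8% in replicate 1 and 56.3% in replicate 2. Hoxd3, which has a long annotated body and spans 10 regions, was covered to 73.2% and 55.8%. Hoxd4, which lies inside the annotated body of Hoxd3, was covered to 61.8% and 58.4%. The longest gap, 4805 bp, lay between Hoxd3 and Hoxd1. Hoxd1, with the second lowest covered share in the replicate 1 list after Hoxb1, was covered to 39.2% in replicate 1 and 49.9% in replicate 2. It had nonetheless the strongest peak of any Hox locus in replicate 1.

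**Figure D3:**
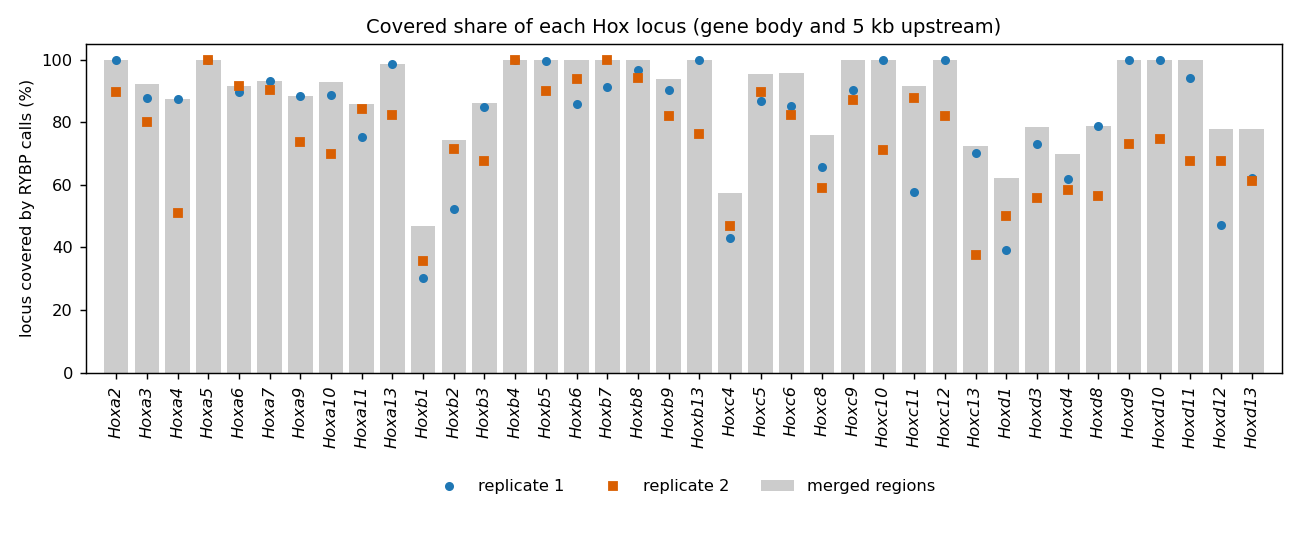
Share of each Hox locus (gene body and 5 kb upstream, in percent) covered by merged regions (grey bars), replicate 1 peaks (blue circles) and replicate 2 peaks (orange squares). Hoxb1 has the shortest bar, 46.9%, and Hoxc4 and Hoxd1 follow.

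Seen by paralogue group, group 1 had low shares. Its members examined here, Hoxb1 and Hoxd1, were covered to 46.9% and 62.2%. In replicate 1 they were the lowest of the 38 loci, whereas in replicate 2 Hoxc13 and Hoxc4 lay below Hoxd1. In groups 5, 6 and 7 no member was covered to less than 85.3% in replicate 1 or 82.3% in replicate 2, both values being those of Hoxc6. In group 4 the merged share ran from 57.4% at Hoxc4 to 100% at Hoxb4, so paralogues could lie far apart.

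Fold enrichment, the authors' ratio of ChIP signal to background at a peak, was moderate over the clusters. The highest value at a Hox locus ran from 3.55 to 5.40 in replicate 1, with a median of 4.01, and from 3.98 to 6.28 in replicate 2, with a median of 4.57. Over all genes with a peak the medians were 3.53 and 3.92. When every peak at a Hox locus was taken, the median was 3.67 in replicate 1, where the whole list gave 3.29, and 4.23 in replicate 2, where the whole list gave 3.60. In replicate 1, 1.36% of all peaks exceeded the strongest Hox peak, and in replicate 2, 1.50% did.

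Hoxd1 had the highest fold enrichment in replicate 1, 5.40, and 5.97 in replicate 2. Its −log10 q was 8.81 and 10.7, the highest of the 38 loci in each replicate. In replicate 2 the highest fold enrichment was 6.28, in a region of 944 bp over the start of Hoxd3 (74549701 to 74550644), where replicate 1 had 3.77. After Hoxd3 and Hoxd1, the highest in replicate 2 were Hoxd9 and Hoxd8 with a shared peak of 5.79, then Hoxc13 with 5.68 and Hoxc11 with 5.57. In replicate 1 these loci had 4.15, 3.99 and 4.35, the first value being shared by Hoxd8 and Hoxd9. The lowest values were those of Hoxb1 in replicate 1, 3.55, and Hoxb4 in replicate 2, 3.98. Each peak had 1 value whatever its width. In replicate 2 the Hoxb4 peak was 17785 bp wide and the Hoxd3 peak 900 bp. In replicate 1 the Hoxb1 peak was 1440 bp wide and the Hoxd1 peak 2123 bp. How width bears on these values was not tested. Because a peak can span several genes, the 38 loci drew their highest values from 26 different peaks in replicate 1 and 30 in replicate 2. Over the 38 loci, Spearman's rho between replicates was 0.567 for the highest fold enrichment and 0.594 for the covered share. These points share peaks and are a description only.

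**Figure D4:**
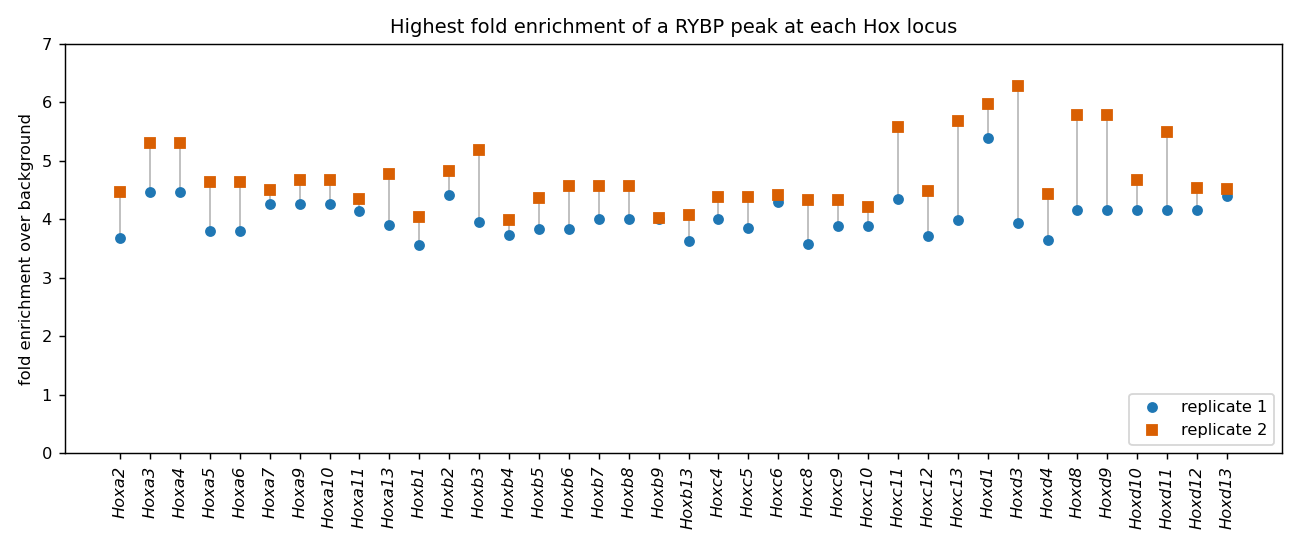
Highest fold enrichment over background of any peak at each Hox locus, in replicate 1 (blue circles) and replicate 2 (orange squares), joined by a line for each gene. The orange squares lie above the blue circles at all 38 loci, and Hoxd1 reaches 5.40 and 5.97.

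The replicates differed in the same sense across the clusters. Replicate 2 had the higher fold enrichment at all 38 Hox loci, as it did at 78.3% of the 8984 genes with a peak in both. Replicate 1 covered more of the locus at 25 of the 38, whereas it did so at 41.3% of those 8984 genes. The study's reporting summary lists more mapped reads for the RYBP sample numbered 1 than for that numbered 2. How depth bears on these differences was not tested. Of the 67 merged regions in the spans, 47 had a peak in both replicates. The other 20 were narrow, between 258 and 1322 bp, and 10 came from each replicate. Of these 20 regions, 8 lay between Hoxb13 and Hoxb9, and 1 held a gene start, that of Hoxd4.

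Gene starts were then set against the calls. All 38 annotated starts lay inside a merged region, against 35.8% of all genes. In both replicates 29 did, against 18.5% of all genes. Starts in a gap of replicate 1 were those of Hoxa6, Hoxb2, Hoxb6, Hoxc6 and Hoxd12, and starts in a gap of replicate 2 were those of Hoxb5, Hoxc4, Hoxd4 and Hoxd11. The annotated start of a Hox gene can be that of a long read-through transcript, as for Hoxa3, whose start (52163338) lies beyond Hoxa6. The start codon, a choice made after the data had been seen, lay in a merged region at all 38 genes, against 29.1% of the 21522 genes with an annotated start codon, and in both replicates at 35, against 17.7%. Those outside were Hoxb2 and Hoxd12 in replicate 1 and Hoxa10 in replicate 2. In the 200 bases before the start, the 29 genes called in both replicates had 2 to 33 CpG with a median of 11, and the other 9 had 3 to 11 with a median of 8. The ranges overlapped. GC content moved with CpG, with medians of 59% and 49%, and its part was not tested.

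Covered sequence was richer in CpG than uncovered sequence in all 4 clusters. Per 100 bp, Hoxa had 3.26 CpG in regions and 0.947 in gaps, Hoxb 2.65 and 1.07, Hoxc 2.51 and 0.713, and Hoxd 3.24 and 0.934. In the replicates taken alone, covered sequence had 2.74 to 3.42 CpG in replicate 1 and 2.78 to 3.91 in replicate 2, and uncovered sequence had 0.896 to 1.16 and 0.924 to 1.16, so that the ranges did not overlap. GC content ran alongside, from 50.6% to 51.2% in regions and from 40.3% to 45.0% in gaps, and CpG and GC content cannot be told apart here. Of the 66 gaps, 65 had a lower CpG density than the covered part of their span. The exception was a gap of 237 bp within Hoxc13, at 6.75 CpG per 100 bp, between narrow regions that were each called in a different replicate. The 47 regions called in both replicates had a median of 2.83 CpG per 100 bp and a median width of 5577 bp. The 20 called in 1 replicate had 1.09 CpG per 100 bp and a median width of 652 bp.

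**Figure D5:**
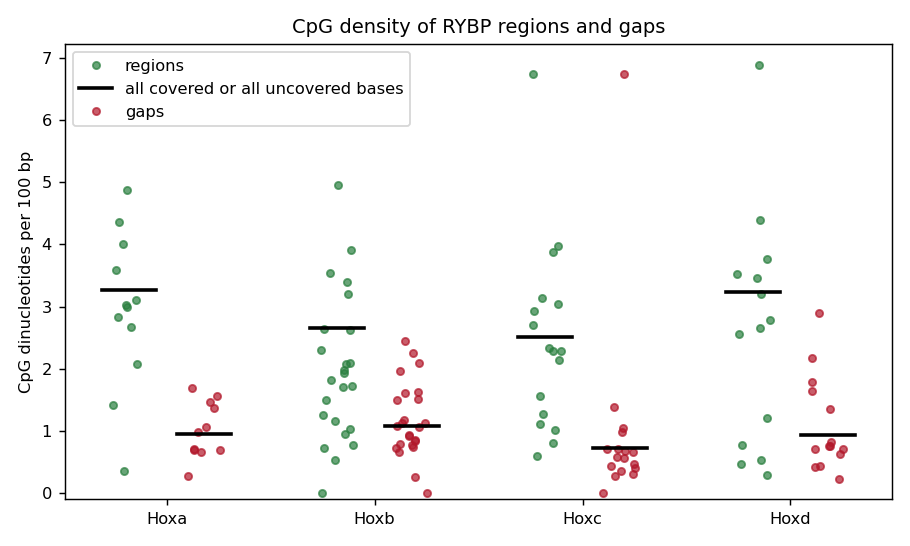
CpG dinucleotides per 100 bp in each merged RYBP region (green) and each gap (red) of the 4 Hox spans, with black bars at the density over all covered or all uncovered bases of the cluster. The bar of the gaps lies between 0.713 and 1.07, below that of the regions in each cluster, and a gap in Hoxc stands at 6.75.

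The gaps were mostly short and mostly outside exons. Their median width was 1016 bp, 31 were no longer than 1 kb, and 13 were at least 2 kb. Of the 66 gaps, 41 held no exonic base. Exonic sequence was covered to 96.4% in Hoxa, 88.4% in Hoxb, 83.8% in Hoxc and 90.9% in Hoxd. The remaining sequence, intronic or intergenic, was covered to 82.7%, 57.9%, 78.8% and 76.1%. RYBP calls were thus not limited to the genes, and 22 of the 38 gene bodies were covered in full by merged regions, against 1.19% of all genes. In replicate 1 14 were, and in replicate 2 11.

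The clusters also hold 6 annotated microRNA genes, of the families known for their place among Hox genes, and all 6 lay wholly in a merged region, against 6.92% of 1576 annotated microRNA genes. In both replicates 5 did, against 3.81%. The microRNA genes were taken for lying in spans that merged regions covered to between 64.4% and 88.3%, so the counts cannot be separated from that coverage. Mir10a, near Hoxb4, and Mir10b, near Hoxd4, were covered in both replicates. So were Mir196b near Hoxa9, Mir196a-2 in Hoxc and Mir615 near Hoxc5. Mir196a-1, between Hoxb13 and Hoxb9, was covered in replicate 2 and lay in a gap of replicate 1. Mature products were taken from RefSeq (GRCm38.p6) and matched by symbol for all 6 genes, and 1 arm (5p or 3p) is shown per gene. The seed, bases 2 to 8, is in capitals because the family groups by seed. Mir196a-1 and Mir196a-2 give the same 5p product. miR-10a-5p and miR-10b-5p share a seed, and miR-196a-5p and miR-196b-5p share another. The 3p products of these genes, not shown, differ in seed.
miR-10a-5p: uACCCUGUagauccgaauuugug
miR-10b-5p: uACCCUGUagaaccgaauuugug
miR-196a-5p: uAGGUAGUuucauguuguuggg
miR-196b-5p: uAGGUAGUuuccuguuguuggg
miR-615-3p: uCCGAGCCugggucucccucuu

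The spans held 16 longer noncoding genes. The start of each lay in a merged region, against 21.3% of 3835 such genes in the genome, and 13 starts lay in a peak in both replicates, against 12.3%. Since the genes were taken for lying in spans covered to between 64.4% and 88.3%, these counts cannot be separated from the coverage of the spans. Their covered share varied widely, from 18.9% to 100% in replicate 1 and from 0% to 100% in replicate 2. Hoxa11as, antisense to Hoxa11, was covered to 83.4% in replicate 1 and 85.3% in replicate 2. Hoxb3os, which overlaps Hoxb2, was covered to 57.5% and 77.9%. The lincRNA 2700086A05Rik, which runs against Hoxa3 over 39860 bp, was covered to 85.6% and 78.9%. At the low end, Gm16258, between Hoxc12 and Hoxc11, was covered to 18.9% and 31.9%. Gm15050, inside the annotated span of Hoxa3, was covered to 78.3% and 25.4%, and 1700109F18Rik, over Hoxd8, to 85.3% and 38.2%. Gm14426, between Hoxd3 and Hoxd1, was covered to 61.9% in replicate 1 and not at all in replicate 2. Where these genes overlap Hox genes, peaks cannot be assigned to either.

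The calls did not stop at the outermost genes. With regions linked across gaps of up to 5 kb, a distance chosen after the data had been seen, there were 8 chains of regions over the 4 clusters, against 17 at 2 kb and 5 at 10 kb. Hoxa, Hoxc and Hoxd each formed 1 chain. The Hoxa chain was 124494 bp long and ran 11825 bp past Hoxa2 and 14144 bp past Hoxa13. The Hoxc chain, of 134860 bp, ran 12348 bp past Hoxc13 and 6771 bp past Hoxc4. The Hoxd chain, of 116419 bp, ran 20470 bp past Hoxd13 and ended within Hoxd1. Hoxb was split into 5 chains, of which the longest, 104356 bp, held Hoxb9 to Hoxb2, while Hoxb13 and Hoxb1 lay in chains of their own. The chain of Hoxb13 ran 29469 bp beyond that gene. These chains come from the merged list, and their ends often rested on 1 replicate. The outermost regions past Hoxa2 and past Hoxc4 were called in replicate 2 alone, and that past Hoxc13 in replicate 1 alone. Past Hoxd13 the outermost region was called in replicate 1, and replicate 2 had no call in the part nearest the span. Past Hoxa13 both replicates had a call in the outermost region. Chains of each replicate alone were not tested.

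Coverage fell away at different rates outside the clusters. Evx2, a homeobox gene next to Hoxd13, was covered to 67.0% in replicate 1 and 69.4% in replicate 2, and the 8448 bp between the genes to 74.5% and 65.6%. Evx1, 52617 bp from Hoxa13, was covered to 63.1% and 69.9%, with 24.97% and 21.03% of the interval covered. On the other side of Hoxd, 0.529% of the 60659 bp between Hoxd1 and Mtx2 was covered, with 0.224% and 0.531% in the replicates. Between Hoxb1 and Skap1 it was 3.31% of 96336 bp, with 1.13% in replicate 1 and 2.47% in replicate 2. Between Hoxb13 and Ttll6 it was 70.4% of 28864 bp, with 65.4% and 55.5%. Between Hoxc4 and Smug1 it was 16.4% of 116463 bp, with 9.30% and 12.8%. Between Calcoco1 and Hoxc13 it was 6.41% of 198924 bp, with 5.60% and 3.51%. Between Skap2 and Hoxa2 it was 5.44% of 149801 bp, with 4.67% and 4.31%. Predicted gene models were passed over in naming these neighbours. Of the flanking genes outside the homeobox family, none was covered by more than 7.11%, the value of Ttll6, and Calcoco1 had no region.

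Genes that act with or upstream of Hox genes were taken as a list of 13, holding members of the Meis, Pbx and Pknox cofactor families, the Cdx genes and the Evx genes. A merged region overlapped 12 of the 13, against 57.1% of all loci, and each of the 12 had a peak in both replicates, against 40.5%. The median covered share was 8.43% (3.12% in replicate 1 and 6.42% in replicate 2), against 0.786% over all genes and 92.9% over the Hox loci. At least 50% was covered at 3 of them, Cdx2, Evx1 and Evx2, the Evx genes being the neighbours of Hoxa and Hoxd described above. Cdx2, which activates posterior Hox genes, was covered to 89.0% in replicate 1 and 45.2% in replicate 2. No region was listed at Cdx4.

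Over the genome as a whole, such coverage was rare. In windows of 100 kb laid end to end, the median covered share of 25792 windows was 0%, and the 99th percentile was 12.9%. In 7 windows at least 40% was covered, and 5 of them overlapped a Hox cluster. These 5 were the highest, with 87.6% over Hoxa, 81.5% over Hoxb, 81.2% over Hoxd, and 68.0% and 45.7% over Hoxc. In the replicates the Hoxa window was covered to 83.6% and 76.0%, the Hoxb window to 72.2% and 67.6% and the Hoxd window to 72.7% and 60.4%. The Hoxc windows were covered to 54.8% and 54.5%, and to 38.1% and 34.9%. The highest window elsewhere, which held Lyl1 and Nfix, was covered to 43.8%, with 29.9% in replicate 1 and 38.6% in replicate 2, the latter above the lower Hoxc window. Of the 72 merged regions of at least 10 kb, 14 lay in the Hox spans with 5 kb added at each end, as did 7 of the 20 widest. The widest region elsewhere, 27284 bp, lay at Cbx8, a Polycomb subunit gene.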

How the data were processed

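RYBP ChIP-seq peak lists of 2 replicates were analysed. Per the study's methods and the submitters' processing notes, the authors cross-linked chromatin with EGS and formaldehyde, aligned paired-end reads to mm9 with Bowtie 1.1.2b, removed duplicates and called broad peaks in each replicate with MACS2 2.0.10. The deposited lists give a fold enrichment (a linear ratio) and a −log10 q-value per peak, and the authors' merged list holds positions alone. It is a union, as 22407 of its 22409 regions matched the union of both lists with starts within 1 bp. The lists hold no read depth, so precision could not be computed from counts. Their methods place the cells slightly later than day 3.75, and the series text speaks of SCL, whereas title, antibody and study name RYBP.

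Overlap of at least 1 bp was computed with Python 3 code (numpy, pandas), tested on simulated data. Genes came from GENCODE on the same build, with entries of 1 symbol joined where they overlapped. Coordinates count from 1. Groups came from the labels. The family is defined by name, but it and the lists were picked for description with earlier results of these data known. All members were named, with the neighbours, noncoding genes and cofactors fixed by rule and the highest and lowest values. A cofactor gene of the list is not reported here. Alternatives were stricter thresholds (−log10 q of at least 2, fold enrichment of at least 3), calls in both replicates, each replicate alone, other loci and spans, and bridged gaps.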

Additional observations from a re-analysis of the deposited data

How the results depend on the processing

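Occupancy of the 38 loci did not depend on the choices tried. With −log10 q or fold enrichment restricted, each replicate alone, or another locus, all 38 loci kept a region. A stricter demand of 50% of the locus left 37 with a region and 33 in both replicates. Gene starts inside a region numbered 33 to 34 in the replicates alone and 29 with calls in both. Shares were more sensitive. With calls in both replicates the median covered share was 73.4%, and the spans were covered to 72.4% (Hoxa), 43.7% (Hoxb), 53.1% (Hoxc) and 52.7% (Hoxd). With a replicate left out, the median ran from 75.5% to 88.0%, Hoxa from 77.1% to 83.7%, Hoxb from 51.7% to 56.4%, Hoxc from 66.0% to 66.9% and Hoxd from 61.0% to 72.9%. These lie below the merged values because the merged list is a union. At −log10 q of at least 2 Hoxc was covered to 75.6%. Bridging gaps of up to 1 kb gave 93.1% for Hoxa and 84.1% for Hoxc. Hoxb from Hoxb9 to Hoxb1, added after the data had been seen, was covered to 84.1%. The CpG difference stayed positive in all 4 spans under each alternative run. The count of loci with a peak in both replicates has no value with a replicate left out. No paired analysis was possible because the inputs that carry the same numbers were not analysed here. Without read depth, an uncovered stretch cannot be told from one where signal fell short of the caller's threshold.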
